A study of Mus musculus with 9 samples.

Results

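Mature megakaryocytes (mMKs) carry growth factors in their granules and hand them to platelets and to the cells around them in the bone marrow. The transcripts of 10 such factors were followed here in mMKs of irradiated mice, namely Vegfa, Vegfc, Angpt1, Pdgfa, Pdgfb, Fgf1, Fgf2, Hgf, Igf1 and Egf. They were chosen by name as growth factors that megakaryocytes can release, and not by a rule on measured values. Earlier results of these data were known when the genes and the lists used below were chosen. All 10 were found among the 37325 genes named on the arrays, and all 10 passed the filter on dim probes that left 29410 genes to be tested.

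VEGF-A and VEGF-C act on receptors of blood and lymphatic endothelium, and angiopoietin-1 acts on the endothelial receptor Tie2 and keeps vessels stable. PDGF-A and PDGF-B drive the growth of mesenchymal cells, acidic and basic fibroblast growth factor (FGF-1 and FGF-2) act on mesenchymal and endothelial cells, and HGF, IGF-1 and EGF act through the receptor tyrosine kinases Met, Igf1r and Egfr. In bone marrow, megakaryocytes lie against sinusoids, and factors of this kind are known to act on the vascular and stromal niche in which blood formation recovers after injury.

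The study compared mMKs of male mice without irradiation (Ctrl) with those taken 1 and 3 days (dpi) after ionizing radiation (IR), with 3 arrays per group and 9 in all. Mice received 5 Gy of γ-rays to the whole body, and control mice were handled alike without the dose. According to the design text, each experiment used different donors. Cells were enriched from the marrow of femur and tibia by positive selection for CD41 and then CD42d, both markers of the megakaryocyte lineage. The labels give neither strain nor genotype. The methods name wild-type C57BL/6 mice for work in unmodified animals, and the age of the mice behind the arrays is not given in the sources used here. Apart from IR and the day of harvest, the groups share all that the labels state.

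Signals are Cy3 intensities of 60-base probes on Agilent arrays. Every level below is the log2 signal of a probe minus the 75th percentile of its array, so that 0 means as bright as that percentile, and levels of different probes were not set against each other. Fold changes are differences of group means on this scale with their standard error (SE, n = 3 arrays per group) and the Benjamini-Hochberg adjusted p from limma over all genes tested. A change passed the test at an adjusted p under 0.05, and a gene was called where the change was also at least 2-fold, or 1 on the log2 scale. With so few arrays precision is limited, and the smallest p that an exact permutation test on 3 and 3 arrays allows is 0.10 (two-sided). On this scale the median gene stood at 0.25 for 1 dpi and at 0.11 for 3 dpi relative to Ctrl, and at -0.11 for 3 relative to 1 dpi. Values relative to this median are given beside the fitted ones where they matter. Both irradiated groups were compared with the same 3 Ctrl arrays. Ctrl replicate 1 was alone on its slide and scan, with 69.1% of spots well above background against 79.5% and 80.8% on the other Ctrl arrays.

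At 1 dpi all 10 growth factors passed the test against Ctrl, 6 of them higher and 4 lower, where 34.8% of all genes passed as higher and 21.1% as lower. The passes of Pdgfb, Hgf, Vegfa, Fgf1 and Egf at 1 dpi did not hold under every alternative. With array medians as the scale, Vegfc and Igf1 were at 0.57 and 0.50 and passed, Pdgfb and Hgf had an adjusted p of 0.223 and 0.138, and Fgf1 had 0.843 with the mean of its probes, 1 of them mostly at background level. With the 2-fold minimum, Fgf2 was called as raised at 1 dpi (12.3% of all genes were) and Fgf1 and Angpt1 as lowered (2.87%). Under the other scalings these shares ran from 3.88% to 8.35% for raised and from 1.33% to 8.41% for lowered genes. At 3 dpi 7 passed as higher and 2 as lower, against 16.9% and 15.1% of all genes. Igf1, Vegfc, Pdgfa and Fgf2 were called higher at 3 dpi, where 6.98% of all genes were, and Angpt1 was called lower, where 1.82% were. Between 3 and 1 dpi, 5 passed as higher and 2 as lower, against 19.8% and 24.9% of all genes. Of these, Fgf1, Igf1 and Vegfc were called higher (3.97% of all genes) and Fgf2 lower (4.82% of all genes). The median log2 fold change over the 10 genes was 0.59 at 1 dpi and 0.79 at 3 dpi, against 0.25 and 0.11 for all genes. It was above 0 under each of the other scalings, between 0.27 and 0.61 at 1 dpi and between 0.53 and 0.75 at 3 dpi. With normexp background correction and the 75th percentile it was 0.50 at 1 dpi, close to the 0.43 of all genes.

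**Figure D1:**
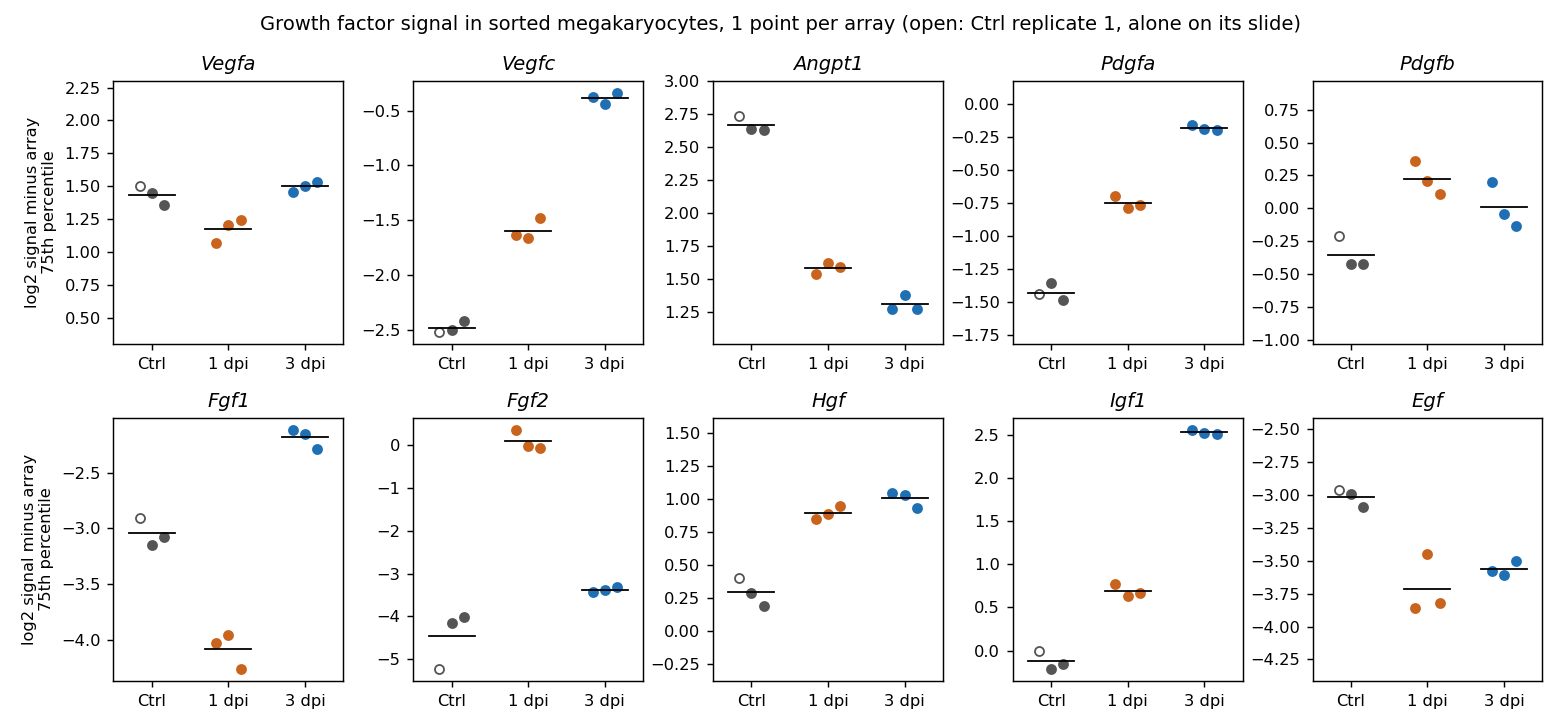
Log2 signal minus the 75th percentile of the array (vertical axis, a separate range for each panel) of the 10 growth factors in Ctrl, 1 dpi and 3 dpi, with 1 point per array and a line at the group mean. Fgf2 is high at 1 dpi alone (mean 0.10 against -4.47 in Ctrl), Igf1, Vegfc and Pdgfa are lowest in Ctrl and highest at 3 dpi, and Angpt1 is highest in Ctrl (2.67).

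Vegfc, the ligand of the lymphatic receptor VEGFR-3, lay at -2.52, -2.50 and -2.42 in Ctrl, at -1.64, -1.67 and -1.48 at 1 dpi and at -0.38, -0.44 and -0.34 at 3 dpi. The 3 groups did not overlap, and the arrays within each group lay close together. Vegfc was 0.89 above Ctrl at 1 dpi (SE 0.07, adjusted p = 5.15e-05 from limma) and 2.09 above it at 3 dpi (SE 0.07, adjusted p = 7.27e-07), or 1.98 relative to all genes. The difference between both time points was itself called, at 1.21 (SE 0.07, adjusted p = 2.55e-05). With the mean of its 3 probes, of which 1 was dim, it was 0.85 and not called. A second probe, whose 60 bases span 108088 bases of the genome (chr8:55163262-55271349 on mm9), rose by 0.73 at 1 dpi and by 1.84 at 3 dpi. The remaining probe was dim. It was well above background on 2 of 3 Ctrl arrays, on 0 of 3 at 1 dpi and on 3 of 3 at 3 dpi, where it was 0.97 above Ctrl (SE 0.23). Its sequence is printed 5′ to 3′ in the sense of the transcript, in lower case like all probe sequences here. The dim probe lies at chr8:55244696-55244755 (mm9, plus strand).
Vegfc: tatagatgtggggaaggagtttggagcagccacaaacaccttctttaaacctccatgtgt

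Vegfa, the main growth factor of blood vessels, has 4 probes, and they did not move alike. The brightest, which stands for the gene (chr17:46154387-46154446 on mm9, minus strand), lay at 1.50, 1.45 and 1.36 in Ctrl, at 1.06, 1.21 and 1.24 at 1 dpi and at 1.46, 1.50 and 1.53 at 3 dpi. The 1 dpi arrays were all below those of the other groups, while Ctrl and 3 dpi overlapped. On this probe Vegfa fell by 0.26 at 1 dpi (SE 0.07, limma's adjusted p = 0.0155) and differed by 0.06 at 3 dpi (SE 0.07, adjusted p = 0.525), a value that was -0.06 after scaling to the array median, 0.68 in the deposited table (adjusted p = 0.181) and 0.44 with the mean of the 4 probes (adjusted p = 0.0258). The probe nearest to it (chr17:46155512-46155571) was at 0.11 and 0.30 above Ctrl, and the latter passed (adjusted p = 0.00853 over all kept probes). Another probe went the other way at 1 dpi. It lay at -0.59, -0.76 and -0.70 in Ctrl, at 0.48, 0.32 and 0.22 at 1 dpi and at 0.29, -0.34 and -0.38 at 3 dpi. All 1 dpi arrays were above all Ctrl arrays, by 1.02 on average (SE 0.18, adjusted p = 0.00193 over all kept probes), and at 3 dpi it was 0.54 above Ctrl (adjusted p = 0.0492). The remaining probe was at -4.85 on Ctrl replicate 1 against -2.85 and -3.11 on the other Ctrl arrays, and its differences from Ctrl did not pass the test. The direction of Vegfa at 1 dpi therefore depended on the probe, and the mean of the 4 probes was 0.37 above Ctrl, whereas all 4 were above Ctrl at 3 dpi. The deposited log2 table, which holds the dim probe for Vegfa, gave 0.25.

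Angpt1, the Tie2 agonist, was the growth factor called lower at both times. Its single probe (chr15:42256343-42256402 on mm9, minus strand) lay at 2.73, 2.63 and 2.63 in Ctrl, at 1.53, 1.62 and 1.59 at 1 dpi and at 1.27, 1.38 and 1.27 at 3 dpi. Every Ctrl array was more than 2-fold above the mean of either irradiated group. Angpt1 fell by 1.08 at 1 dpi (SE 0.06, limma's adjusted p = 1.04e-05) and by 1.36 at 3 dpi (SE 0.06, adjusted p = 3.21e-06), or by 1.33 and 1.47 relative to all genes. The further step of -0.27 between 1 and 3 dpi passed the test (SE 0.06, adjusted p = 0.00935) but was under 2-fold, and with array medians as the scale it was -0.084 and did not pass (adjusted p = 0.675). In RNA of a whole sorted sample, fewer cells of a type and less RNA per cell cannot be told apart.

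Pdgfa, the A chain of platelet-derived growth factor, lay at -1.44, -1.36 and -1.49 in Ctrl, at -0.69, -0.79 and -0.76 at 1 dpi and at -0.15, -0.19 and -0.20 at 3 dpi. The groups formed 3 separate steps. Pdgfa was 0.68 above Ctrl at 1 dpi (SE 0.06, adjusted p = 7.81e-05 from limma) and 1.25 above it at 3 dpi (SE 0.06, adjusted p = 3.8e-06). The value at 1 dpi was 0.44 relative to all genes and 0.37 with array medians as the scale (adjusted p = 0.0281). Its second probe gave 0.88 and 1.24. The step from 1 to 3 dpi was 0.57 (SE 0.06), which passed the test without reaching 2-fold.

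Pdgfb, the B chain and the one long known from platelets, changed less. It lay at -0.21, -0.42 and -0.42 in Ctrl, at 0.36, 0.21 and 0.11 at 1 dpi and at 0.20, -0.04 and -0.14 at 3 dpi. Both irradiated groups were above Ctrl, and they overlapped each other. The difference was 0.58 at 1 dpi (SE 0.11, adjusted p = 0.00395 from limma) and 0.36 at 3 dpi (SE 0.11, adjusted p = 0.0468), neither 2-fold. The latter did not pass in 10 of 20 alternatives, with an adjusted p of up to 0.36, among them array medians as the scale, no filter, the mean of probes and the removal of any of 7 single arrays. On the second Pdgfb probe, designed on a separate cDNA, the differences were 0.06 and -0.10 (SE 0.16) and did not pass the test.

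Fgf2, basic fibroblast growth factor, showed the largest change of the 10 genes. On the probe that stands for it, the signal was -5.23, -4.16 and -4.02 in Ctrl, 0.37, -0.01 and -0.06 at 1 dpi and -3.43, -3.38 and -3.32 at 3 dpi. The 1 dpi arrays stood far above all others, and the 3 dpi arrays had returned close to Ctrl but still lay above all 3 Ctrl arrays. Fgf2 was 4.57 above Ctrl at 1 dpi (SE 0.30, adjusted p = 1.94e-05 from limma), which is 23.7-fold (3.47 and 3.30 with normexp, after the 75th percentile and after quantile normalization), and fell by 3.48 from 1 to 3 dpi (SE 0.30, adjusted p = 1.24e-04). At 3 dpi it was 1.09 above Ctrl (SE 0.30, adjusted p = 0.0261). This last call rested on Ctrl replicate 1, without which the difference was 0.71 and no longer 2-fold, and on all 3 arrays of 3 dpi, since without any of them the adjusted p was between 0.0637 and 0.0768 at 1.06 to 1.12. It was also lost under every other scaling (0.46 to 0.97) and with the replicate block (adjusted p = 0.0568). At 1 dpi the difference without Ctrl replicate 1 was 4.19.

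The rise was seen on 1 of the 3 Fgf2 probes. That probe (chr3:37247934-37295153 on mm9, plus strand) spans 47220 bases of the genome with 60 bases of sequence. No mm9 annotation was at hand to place the probes in exons. A second probe further along the gene (chr3:37303539-37303598, plus strand) and another, designed on a separate cDNA of the locus (chr3:37279853-37279912), were well above background on 0 of 9 arrays. The probe further along is assigned to the same RefSeq transcript as the spanning probe, yet it did not show the rise at 1 dpi. The cause of this was not tested. The spanning probe, well above background on all 9 arrays, and the one further along, on 0 of 9, are printed 5′ to 3′ in the sense of the transcript. They hold 48.3% and 35.0% G and C.
Fgf2, spanning probe: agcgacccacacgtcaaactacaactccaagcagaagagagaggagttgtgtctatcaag
Fgf2, further along: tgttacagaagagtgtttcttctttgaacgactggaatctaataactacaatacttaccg

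Fgf1, acidic fibroblast growth factor, moved in opposite directions at 1 and 3 dpi on its brightest probe. This probe lay at -2.91, -3.15 and -3.07 in Ctrl, at -4.03, -3.96 and -4.26 at 1 dpi and at -2.12, -2.15 and -2.29 at 3 dpi. The 1 dpi arrays were the lowest and the 3 dpi arrays the highest, with no overlap. Fgf1 fell by 1.04 at 1 dpi (SE 0.10, limma's adjusted p = 1.50e-04), was 0.86 above Ctrl at 3 dpi (SE 0.10, adjusted p = 5.35e-04) and rose by 1.90 from 1 to 3 dpi (SE 0.10, adjusted p = 1.93e-05). A dimmer probe was at 0.67 at 1 dpi (SE 0.39), at 0.08 at 3 dpi and at -0.59 from 1 to 3 dpi, none of which passed. The remaining probe was well above background on 1 of 3 arrays in Ctrl and at 1 dpi, so that no value is given for it. The call at 1 dpi lay close to the 2-fold limit and was lost without Ctrl replicate 1 (-0.97), without 1 dpi replicate 3 (-0.95) and with normexp (-0.24 after the 75th percentile and -0.77 after quantile normalization). The mean of the 3 probes, which takes in signal at background level, was at 0.042 at 1 dpi and at 0.41 at 3 dpi, where it did not pass (adjusted p = 0.0993). The rise from 1 to 3 dpi was 0.37 with that mean and 0.92 with normexp and the 75th percentile, neither called.

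Igf1, which acts on stromal, muscle and blood-forming cells alike, had the largest rise at 3 dpi. Its signal was 0.00, -0.21 and -0.16 in Ctrl, 0.77, 0.63 and 0.67 at 1 dpi and 2.56, 2.52 and 2.51 at 3 dpi. The 3 dpi arrays lay within 0.06 of one another and far above both other groups. Igf1 was 0.81 above Ctrl at 1 dpi (SE 0.07, adjusted p = 9.76e-05 from limma) and 2.65 above it at 3 dpi (SE 0.07, adjusted p = 3.67e-07), which is 6.29-fold. The difference between both times was 1.84 (SE 0.07, adjusted p = 8.16e-06) on this probe, but 0.36 and 0.29 on the other 2, and with the mean of the 3 probes it was 0.83 and not called. A dimmer probe far upstream, at chr10:87325382-87325441 against chr10:87393516-87393575 for the first (mm9, plus strand), gave 1.65 and 2.01. The remaining probe, between them, was at -0.05 and 0.24 (SE 0.23) and did not pass the test.

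Hgf, the ligand of Met, lay at 0.40, 0.29 and 0.19 in Ctrl, at 0.85, 0.89 and 0.95 at 1 dpi and at 1.05, 1.03 and 0.94 at 3 dpi on its brightest probe. Both irradiated groups were above Ctrl and overlapped each other. Hgf was 0.60 above Ctrl at 1 dpi (SE 0.07, adjusted p = 3.90e-04 from limma) and 0.72 above it at 3 dpi (SE 0.07, adjusted p = 2.28e-04). All 4 Hgf probes passed the test at both times. They ranged from 0.51 to 1.23 at 1 dpi and from 0.43 to 0.72 at 3 dpi, but not in the same order. The brightest lies at chr5:16079193-16079252 (mm9), whereas the probe furthest along the plus strand (chr5:16124829-16124888) was at 1.08 at 1 dpi and at 0.43 at 3 dpi. Between 3 and 1 dpi the brightest probe differed by 0.11 (adjusted p = 0.256), and the far probe, which the deposited log2 table holds for Hgf, by -0.63 (adjusted p = 2.66e-04 in that table).

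Egf was dim, with raw intensities between 44.2 and 198. It lay at -2.97, -2.99 and -3.09 in Ctrl, at -3.86, -3.45 and -3.82 at 1 dpi and at -3.57, -3.61 and -3.50 at 3 dpi. All irradiated arrays were below all Ctrl arrays. Egf fell by 0.70 at 1 dpi (SE 0.11, limma's adjusted p = 0.00153) and by 0.55 at 3 dpi (SE 0.11, adjusted p = 0.00768), while a second, dimmer probe was at 0.21 and -0.28 (SE 0.26) and did not pass. At 1 dpi the fall did not pass with normexp and the 75th percentile (-0.12, adjusted p = 0.173) or with the mean of probes (-0.24, adjusted p = 0.156). It was larger with array medians as the scale (-1.01, where it was called), after quantile normalization and in the deposited table (both -0.99). The remaining Egf probe was well above background on 0 of 9 arrays.

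**Figure D2:**
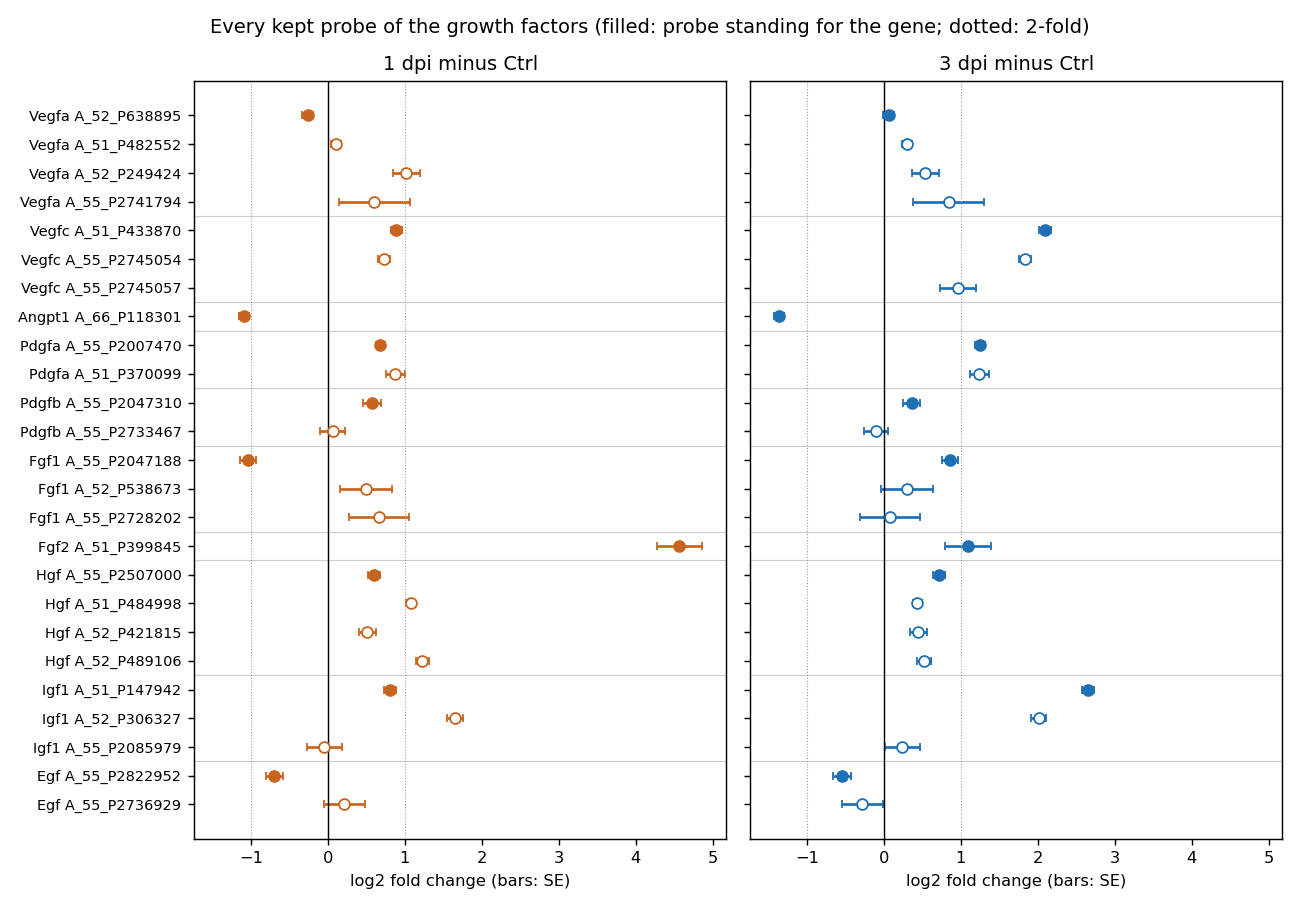
Log2 fold change against Ctrl (horizontal axis, bars are the SE) of the kept probes of the 10 growth factors at 1 dpi (left) and 3 dpi (right), with the probe that stands for its gene filled and dotted lines at a 2-fold change. No point is drawn where a group had no array well above background. Probes of Vegfc, Pdgfa and Hgf lie on the same side of 0, although the dim Vegfc probe passed the filter through 3 dpi alone. Those of Vegfa, Fgf1, Igf1 and Egf lie on both sides at 1 dpi.

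In all, 28 probes represent the 10 genes. Of these 25 passed the filter, 23 were well above background on all 9 arrays and 3 on none. Of the genes with over 1 kept probe, Pdgfa and Hgf moved in the same direction on every probe at both times. Vegfc did so on the 2 probes well above background on all 9 arrays. Its dim probe passed the filter through 3 dpi alone and is not counted here. The values of Angpt1 and Fgf2 rest on 1 kept probe each.

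Transcripts of megakaryocyte markers were detected in the sorted cells at all times. All 16 megakaryocyte markers tested, among them Pf4, Itga2b (CD41) and Gp9, were well above background on all arrays, and 0 of 16 were called in any comparison with limma. All 8 neutrophil and all 8 B cell markers were well above background on all arrays too. Detection therefore does not measure how pure the sorted cells were, and purity was not tested. With adjusted p alone, 4 passed as higher and 5 as lower at 1 dpi, and 6 and 2 at 3 dpi. The shares of all genes that passed were 34.8% and 21.1%, and 16.9% and 15.1%. After scaling to the array median 1 was called lower at 1 dpi and 2 higher from 1 to 3 dpi. At 3 dpi 1 was called lower in the deposited values. Their mean level was 1.48, 1.33 and 1.29 in Ctrl, 1.37, 1.32 and 1.23 at 1 dpi and 1.54, 1.53 and 1.53 at 3 dpi. Gp5, which encodes CD42d, was at -0.54 at 1 dpi and at -0.28 at 3 dpi against Ctrl, while Pf4 was at 0.09 and 0.01. Other markers, named after their values were seen, moved in opposite directions. Gata1 (-0.67 at 1 dpi and -0.80 at 3 dpi) and Nfe2 (-0.37 and -0.54) passed as lower at both times. Gp9 (0.47 and 0.93) passed as higher at both times, and Gp6 (-0.008 and 0.95) at 3 dpi alone. Gp1ba was at -0.82 and 0.06, and Itga2b at 0.69 and -0.03.

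Markers of other marrow cells moved as well. Among all genes the shares called were 12.3% (higher) and 2.87% (lower) at 1 dpi, and 6.98% and 1.82% at 3 dpi. Of 10 stromal markers, 7 were called higher at 1 dpi and 6 at 3 dpi, with a median of 1.50 and 3.33, and their mean level was -1.61, -1.34 and -1.22 in Ctrl, 0.12, -0.13 and 0.09 at 1 dpi and 0.95, 0.74 and 0.80 at 3 dpi. Cxcl12, which marks reticular stromal cells, was 3.50 above Ctrl at 3 dpi, and the collagen gene Col3a1 3.74 above it. On this scale the 4 stromal markers not called at 3 dpi, named after their values were seen, were Lepr, Pdgfra, Kitl and Pdgfrb. Lepr, Pdgfra and Kitl (0.42, 0.41 and 0.33) did not pass, and Pdgfrb passed as lower (-0.39). The other scalings of the array signals also had 6 stromal markers called higher at 3 dpi. In the deposited values 9 of the 10 were called higher, so that most of these 4 were called there. The cause was not tested. Of 8 endothelial markers, 5 were called higher at 1 dpi and 7 at 3 dpi, with a mean level that went from -2.21, -2.30 and -2.30 in Ctrl to -1.25, -1.42 and -1.26 at 1 dpi and -0.39, -0.60 and -0.51 at 3 dpi. With array medians as the scale, 3 of them were called higher and 1 lower at 1 dpi. After quantile normalization and in the deposited table these counts were 4 and 1. Macrophage markers followed later, with 3 of 10 called higher at 1 dpi, where another 3 passed the test as lower, and 8 at 3 dpi. Their mean level was 2.32, 2.13 and 2.09 in Ctrl, 2.63, 2.56 and 2.62 at 1 dpi and 3.86, 3.85 and 3.82 at 3 dpi. Like Igf1, Vegfc and Pdgfa, these 3 lists had no overlap between groups and were highest at 3 dpi. Their part in the rise of Igf1, Vegfc and Pdgfa was not tested.

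The smaller lists of osteoblast and adipocyte markers went the same way. Of 4 osteoblast markers, 2 were called higher at 1 dpi and 3 at 3 dpi, and their mean level was -2.97, -2.63 and -2.59 in Ctrl, -1.21, -1.42 and -1.20 at 1 dpi and -0.44, -0.52 and -0.42 at 3 dpi. Of 5 adipocyte markers, 2 and 4 were called higher, and their mean level was -1.32, -1.20 and -1.12 in Ctrl, 0.14, -0.04 and -0.01 at 1 dpi and 1.28, 1.17 and 1.34 at 3 dpi. Adipoq alone was 4.23 above Ctrl at 3 dpi. All markers of these lists were well above background on every array, Ctrl included, except Flt4. Flt4 was so on 2 of 3 Ctrl arrays and 2 of 3 arrays at 1 dpi, and passed the filter through 3 dpi alone.

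Most markers of B cells and red cells fell, as Angpt1 did. Of 8 B cell markers, 7 were called lower at both times and 1 passed the test as higher at 1 dpi, with a mean level of 0.38, 0.26 and 0.29 in Ctrl, -2.52, -2.54 and -2.57 at 1 dpi and -2.17, -2.19 and -2.19 at 3 dpi. In the deposited table all 8 were called lower at both times. Of 8 erythroid markers, 5 were called lower and Hemgn higher at 1 dpi, where 3 passed the test as higher, and 6 were called lower at 3 dpi. Hemgn was not called higher after quantile normalization, with or without normexp, and the deposited table gave it as lower (-2.19). The mean level of the list was 0.03, -0.07 and -0.05 in Ctrl, -2.16, -2.37 and -2.46 at 1 dpi and -1.72, -1.60 and -1.74 at 3 dpi, and Epb42 was well above background on 0 of 3 arrays at 1 dpi. According to the methods, red cells had been lysed ahead of the selection. The part of these cells in the fall of Angpt1 was not tested.

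Of 8 neutrophil markers, S100a8 and S100a9 were called higher at 1 dpi and 0 at 3 dpi, and their mean level was 6.46, 6.55 and 6.53 in Ctrl, 7.11, 7.02 and 7.02 at 1 dpi and 6.52, 6.39 and 6.47 at 3 dpi. Like Fgf2, this list was highest at 1 dpi, although its median at 1 dpi went below 0 after quantile normalization (-0.11, and -0.12 with normexp) and in the deposited table (-0.20). Its part in the rise of Fgf2 was not tested. Of 7 T and NK cell markers, Ncr1 was called higher at 1 dpi and 3 at 3 dpi, with a mean level of -2.36, -2.09 and -2.10 in Ctrl, -1.51, -1.62 and -1.69 at 1 dpi and -1.08, -1.24 and -1.18 at 3 dpi. The mean of this list, too, had no overlap between groups and was highest at 3 dpi. However, 3 of the 7 stood lower at 3 than at 1 dpi, of which Nkg7 alone passed the test. With normexp and the 75th percentile the median was 0.64 at 1 dpi and 0.37 at 3 dpi. Its part in the rise of Igf1, Vegfc and Pdgfa was not tested. Of 6 dendritic cell markers 5 were tested, with Siglech called higher and Flt3 and Cd209a lower at 1 dpi, and Flt3 lower at 3 dpi. The calls of S100a9 and Siglech at 1 dpi were lost under each of the other scalings, and that of S100a8 under all but normexp with the 75th percentile. Ncr1 was not called under any other scaling of the array signals, but the deposited table had 2 T and NK cell markers called higher. That table gave Siglech as lower (-2.08). The mean level of the dendritic cell markers was -0.23, 0.24 and 0.10 in Ctrl, -0.13, -0.30 and -0.20 at 1 dpi and -0.21, -0.38 and -0.48 at 3 dpi.

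**Figure D3:**
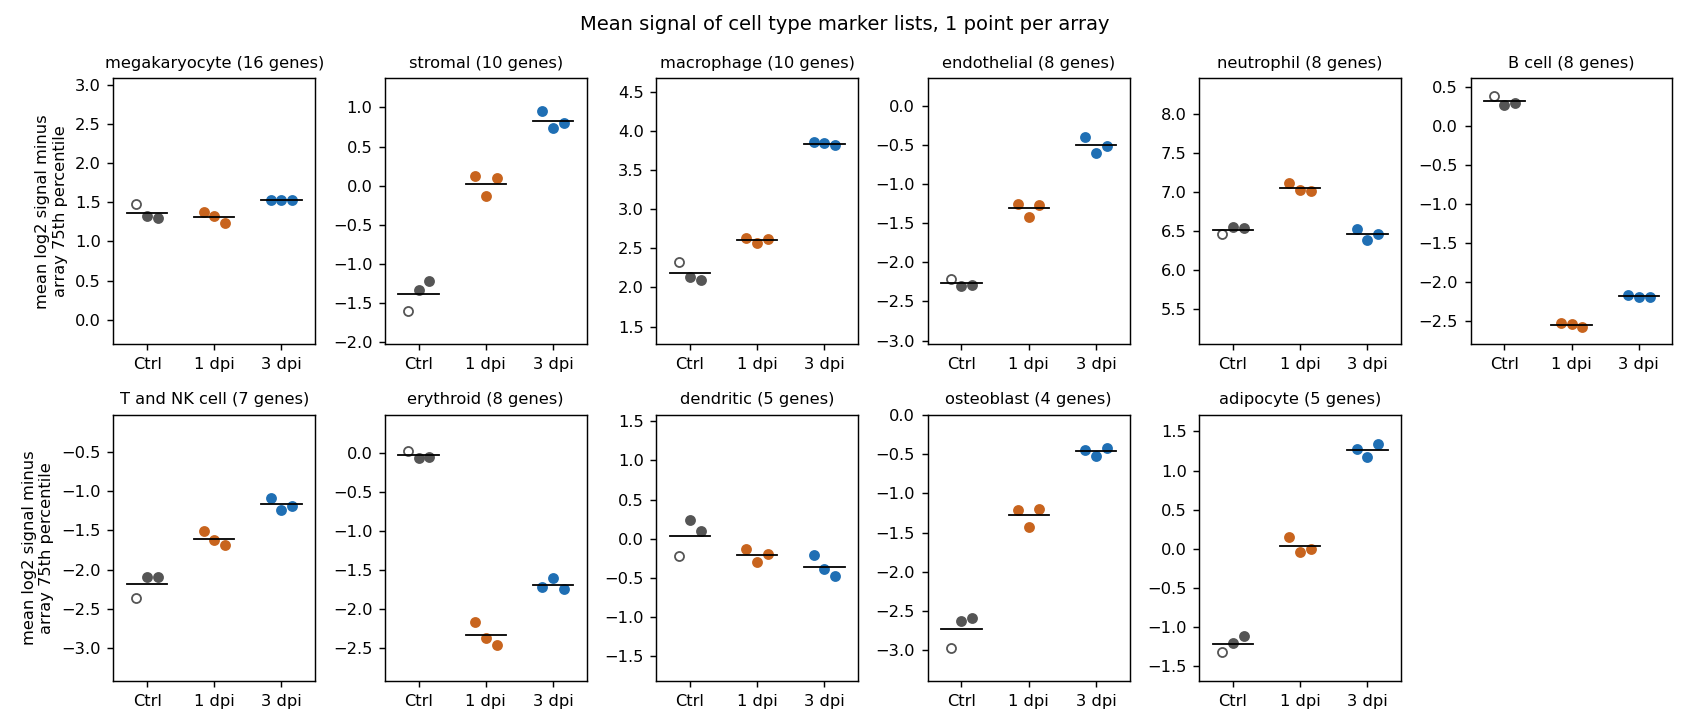
Mean log2 signal minus the 75th percentile of the array over the tested genes of each marker list (vertical axis, a separate range for each panel), with 1 point per array, a line at the group mean and Ctrl replicate 1 open. Megakaryocyte markers stay between 1.23 and 1.54, stromal, endothelial, macrophage, osteoblast, adipocyte and T and NK cell markers are highest at 3 dpi, and B cell and erythroid markers are highest in Ctrl.

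Of the receptors for these factors, 21 were listed and all were tested. At 1 dpi 7 were called higher and 0 lower, with a median of 0.75 against 0.25 for all genes, and at 3 dpi 6 higher and 0 lower, with a median of 0.41 against 0.11. The shares of all genes to set beside these and the next lists are 12.3% higher and 2.87% lower at 1 dpi and 6.98% and 1.82% at 3 dpi. The largest changes were in receptors of the VEGF ligands. Flt4 (VEGFR-3), counted above as called higher at both times, was 1.21 above Ctrl at 1 dpi and 2.15 at 3 dpi (SE 0.23). It was well above background on 2 of 3 arrays in Ctrl and at 1 dpi, so that it passed the filter through 3 dpi alone. Kdr (VEGFR-2) was 1.23 above Ctrl at 1 dpi (SE 0.13) and 2.01 at 3 dpi, Flt1 (VEGFR-1) was 1.51 above it at 3 dpi (SE 0.14), and Nrp1, a co-receptor, was at 1.18 and 1.57 (SE 0.09) with its 7 probes between 0.70 and 1.35 at 1 dpi. Nrp2, the co-receptor for VEGF-C, was 1.47 above Ctrl at 1 dpi (SE 0.09, adjusted p = 1.79e-05 from limma) and fell by 1.29 from 1 to 3 dpi, although another of its 3 probes differed by 1.41 in the opposite direction. After quantile normalization, with or without normexp, 0 receptors were called lower from 1 to 3 dpi. The receptors of Igf1, Hgf and Angpt1 were looked up after the other values had been seen, and none of them was called on this scale. Igf1r was at -0.35 at 1 dpi and -0.05 at 3 dpi, Met was at -0.09 and 0.45, and Tek, which encodes Tie2, was at -0.91 and 0.02. Tek was called lower at 1 dpi after scaling to the array median (-1.22), after quantile normalization (-1.20) and in the deposited table (-1.20). Kdr, Tek and Flt4 are also on the endothelial list, and Pdgfra and Pdgfrb on the stromal list. Under the other scalings 1 to 4 receptors were called higher and 0 to 2 lower at 1 dpi, with medians from 0.20 to 0.70.

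Other ligands of the same families numbered 31, of which 23 passed the filter. At 1 dpi 5 were called higher and at 3 dpi 7, with 0 lower at either time (1 lower at 1 dpi with array medians as the scale, after quantile normalization and in the deposited table), and the medians were 0.74 and 0.50, or 0.73 and 0.46 with genes not well above background in 1 group set to their bound. They were 0.55 and 0.25 without Ctrl replicate 1, and 0.12 and 0.08 after normexp and quantile normalization, where 1 was called higher at 1 dpi and 3 at 3 dpi. Areg (amphiregulin), which binds the EGF receptor, was 2.21 and 2.96 above Ctrl at 1 and 3 dpi (SE 0.22), whereas Egf itself fell. Fgf7 was at 1.84 and 2.61 (SE 0.30). Pdgfc was at -0.30 at 1 dpi and 2.26 at 3 dpi (SE 0.10), a step of 2.56 between both times, while Angpt2, which antagonizes angiopoietin-1 at Tie2 in many settings, fell by 1.16 from 1 to 3 dpi on its brightest probe and by 0.20 on the other. Mst1, a relative of Hgf, was 1.89 above Ctrl at 1 dpi (SE 0.19). Between 3 and 1 dpi 3 ligands were called higher and 1, Angpt2, lower (3.97% and 4.82% of all genes were). With array medians as the scale 0 were called lower. Of the 3 called higher, named after seeing their values, Angpt4 and Fgf9 were well above background on 0 of 3 arrays at 1 dpi. Angpt4 and Fgf22 were well above background on the 3 dpi arrays alone, so that the filter itself ties them to that group. Without them, a choice made after seeing the data, 4 ligands were called higher at 1 dpi and 6 at 3 dpi. Vegfd, still counted at 1 dpi, was well above background on 2 of 3 arrays in Ctrl and at 1 dpi. It too passed the filter through 3 dpi alone.

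Proteins that bind, activate or inhibit the factors were listed too. Of 24 listed genes 21 were tested, and 9 were called higher at 1 dpi and 10 at 3 dpi, with 0 lower at either time and medians of 0.83 and 0.69. Pappa2 was well above background on the 3 dpi arrays alone, and without it, again a choice made after seeing the data, 8 and 9 were called higher. Several of them handle IGF-1. Pappa, a protease that cleaves IGF-binding proteins, was 3.85 above Ctrl at 3 dpi (SE 0.18, adjusted p = 2.99e-06 from limma), and Igfbp5 rose by 2.24 from 1 to 3 dpi (SE 0.13). Igfbp7 was 1.96 above Ctrl at 1 dpi (SE 0.09). Htra1, a secreted serine protease, was at 2.26 and 3.34 (SE 0.17), or at 1.73 and 1.74 on its other probe. Sparc, a matrix protein that binds PDGF and VEGF, was at 2.55 and 3.16 (SE 0.08), with its 3 probes between 0.44 and 2.55 at 1 dpi and between -0.018 and 3.30 at 3 dpi. Under the other scalings 4 to 10 of the list were called higher at 1 dpi and 7 to 10 at 3 dpi, with 0 lower, and the median at 1 dpi went down to 0.35.

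Genes that respond to growth factor signals were also listed. Of 22 feedback and early response genes, 10 rose past both limits at 1 dpi and 1 fell past them, with a median of 0.94 (0.93 with Spry4 at its bound). Under the other scalings 6 to 10 were called higher and 1 lower at this time, with medians from 0.47 to 0.82. At 3 dpi 5 were called higher and 0 lower, with a median of 0.38. Ccnd1, which encodes cyclin D1, was 2.15 above Ctrl at 1 dpi (SE 0.07) and 1.79 at 3 dpi. Errfi1, a feedback inhibitor of the EGF receptor, was at 1.86 and 2.94 (SE 0.06), or at 1.35 and 1.03 on its other probe, Egr2 was at 1.72 at 1 dpi (SE 0.08), and Etv5 was at 1.44 at 3 dpi (SE 0.08). Spry4 was well above background on the 3 dpi arrays alone, and without it, left out after seeing the data, 9 were called higher at 1 dpi and 4 at 3 dpi. The immediate early genes Fosb, Egr1 and Egr3 fell by 1.53, 1.19 and 1.16 from 1 to 3 dpi (SE 0.11, 0.07 and 0.09), the same interval in which Fgf2 fell. Whether these genes responded to any of the 10 factors was not tested.

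Of 12 hypoxia response genes, which rise with Vegfa where oxygen is low, 0 were called in any of the 3 comparisons with limma. The deposited values gave 1 higher and 1 lower call at 1 dpi, and 1 lower call in each of the others. With adjusted p alone, 5 passed as higher and 4 as lower at 1 dpi, and 1 as higher and 3 as lower at 3 dpi, where the shares of all genes were 34.8% and 21.1%, and 16.9% and 15.1%. The medians were 0.23 at 1 dpi and -0.07 at 3 dpi, with the former at -0.08 after scaling to the array median.

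**Figure D4:**
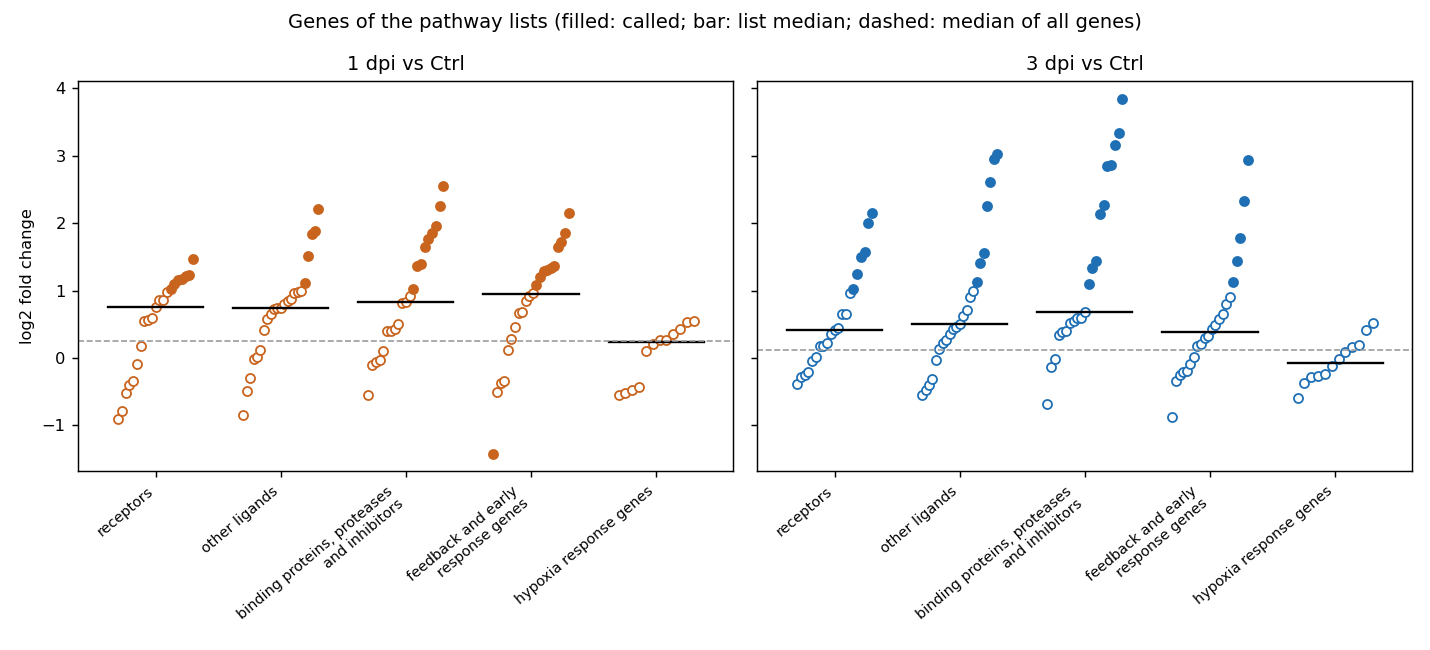
Log2 fold change against Ctrl (vertical axis) of each tested gene of 5 pathway lists at 1 dpi (left) and 3 dpi (right), sorted within each list, with called genes filled, the list median as a bar and the median of all genes dashed. Called genes of the receptors, other ligands and binding proteins all lie above 0 (under other scalings up to 2 receptors and 1 other ligand were called lower at 1 dpi), and the hypoxia response genes hold no called gene. Genes not well above background in a group are drawn at their fitted values. Among them Angpt4, Pappa2 and Spry4 are filled at both times, although they were well above background on the 3 dpi arrays alone.

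Promoter sequences were given for 7 of the 10 genes, with 11 start sites in all, by RefSeq on GRCm38.p6. Entries for Pdgfb, Fgf1 and Angpt1 are missing. The window ran from 250 bases before to 50 bases after the start. A GC box (GGGCGG on either strand) was present in 6 of the 11, which belong to Vegfa, Vegfc, Pdgfa and Fgf2, and in 35.7% of all 32851 promoters. The hypoxia element core (ACGTG) was present in 2 of the 11, 1 of Vegfa and 1 of Egf, and in 19.6% of all promoters. The AP-1 motif (TGANTCA) was present in that of Igf1 and in 7.81% of all promoters, and a TATA box (TATAAA) in 0 of the 11 and in 13.6% of all promoters. These matches are descriptions of the sequence and name no bound factor.

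The promoters of the 3 genes that rose together to their highest level at 3 dpi, Igf1, Vegfc and Pdgfa, and that of Fgf2, which peaked at 1 dpi, are printed 5′ to 3′ on the strand of the gene, as the 250 bases before the start. Capitals mark matches to the 4 motifs on either strand, which do not overlap one another. They lie at chr10:87860861-87861110 (Igf1, plus strand), chr8:54077282-54077531 (Vegfc, plus strand), chr5:138994282-138994531 and chr5:138994945-138995194 (Pdgfa, minus strand) and chr3:37348403-37348652 (Fgf2, plus strand), all on GRCm38.p6. Of those printed, that of Igf1 has the AP-1 motif, and the others carry 1 or 2 GC boxes each.
Igf1: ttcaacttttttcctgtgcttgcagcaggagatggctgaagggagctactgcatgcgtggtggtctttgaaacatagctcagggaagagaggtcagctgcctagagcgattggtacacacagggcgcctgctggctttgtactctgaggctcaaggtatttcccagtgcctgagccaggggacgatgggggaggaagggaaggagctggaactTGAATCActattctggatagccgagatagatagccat
Vegfc: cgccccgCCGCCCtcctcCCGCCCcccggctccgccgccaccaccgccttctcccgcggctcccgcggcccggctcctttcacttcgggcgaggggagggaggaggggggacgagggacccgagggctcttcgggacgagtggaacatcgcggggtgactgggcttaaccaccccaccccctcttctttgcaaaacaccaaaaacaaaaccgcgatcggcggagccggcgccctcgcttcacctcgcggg
Pdgfa, downstream start: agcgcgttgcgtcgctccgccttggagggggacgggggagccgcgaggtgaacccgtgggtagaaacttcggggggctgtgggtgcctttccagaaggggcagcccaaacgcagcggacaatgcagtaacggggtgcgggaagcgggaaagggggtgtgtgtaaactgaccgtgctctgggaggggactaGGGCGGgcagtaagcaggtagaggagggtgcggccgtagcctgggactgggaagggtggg
Pdgfa, upstream start: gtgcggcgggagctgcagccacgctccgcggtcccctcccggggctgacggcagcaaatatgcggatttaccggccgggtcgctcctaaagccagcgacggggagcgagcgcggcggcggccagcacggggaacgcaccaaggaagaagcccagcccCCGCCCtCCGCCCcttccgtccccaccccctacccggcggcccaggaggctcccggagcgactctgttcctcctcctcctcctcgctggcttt
Fgf2: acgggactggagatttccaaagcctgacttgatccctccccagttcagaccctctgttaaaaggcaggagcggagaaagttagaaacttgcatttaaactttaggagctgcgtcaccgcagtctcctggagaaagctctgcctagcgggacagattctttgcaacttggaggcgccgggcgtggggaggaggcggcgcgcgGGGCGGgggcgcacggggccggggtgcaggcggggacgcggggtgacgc

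For each growth factor called in any comparison, the genes whose signal followed it most closely over the 9 arrays were listed as a description. Because the 9 arrays fall into 3 groups, these correlations reflect mostly the group means. The closest to Fgf2 were Shank2 (Pearson r = 0.999), Fam219a (0.998) and Lypd6b (0.998). Igf1 was followed by Dse, Slc38a6 and Ackr1 (all 0.998), Vegfc by Heph (0.998), Fzd1 (0.997) and Il13ra2 (0.997), and Pdgfa by Nid1 (0.999), Kcnk13 and Rcan2. Angpt1 was closest to D10Bwg1070e, Niban3 and Gimap1 (0.998, 0.998 and 0.997), and Fgf1 to Vps26c, Asah1 and Arhgef12 (0.996, 0.995 and 0.993).

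The files show 2 slides, each scanned on its own. The 8 arrays other than Ctrl replicate 1 shared a slide that holds all 3 groups, and a fit with slide as a block gives the same values as one without that array. The groups cannot be compared within the other slide, which holds a single Ctrl array. Within the shared slide Fgf2 and Angpt1 were called at 1 dpi, at 4.19 and -1.05, and Igf1, Vegfc, Pdgfa and Angpt1 at 3 dpi, at 2.72, 2.07, 1.24 and -1.32.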

How the data were processed

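The authors deposited spot intensities of 9 Agilent 1-colour arrays, made with Agilent Feature Extraction 10.7.1.1, with background and slide trends taken off, and not scaled between arrays. The methods name another chip (Affymetrix), so their steps were not taken as those of these files. A deposited matrix gives log2 values by gene name, and how it was made is not stated. Its values for the 10 genes match 1 probe each after quantile normalization, with a largest difference of 0.00265 (Angpt1), for Vegfa and Hgf another probe than the one used here. Its column medians were 6.97, 6.96 and 6.97 for Ctrl, 6.95, 6.95 and 6.96 at 1 dpi and 7.01, 7.03 and 7.04 at 3 dpi. It served as an alternative.

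Control spots and outlier spots were left out, spots of a probe were averaged, and each array was scaled to its 75th percentile on the log2 scale. Probes were named through their RefSeq records and the GRCm38.p6 gene table, and otherwise by the name in the array files. A probe was kept if some group had it well above background on each of its 3 arrays, and the probe with the highest mean stood for its gene. In Ctrl 69.1%, 79.5% and 80.8% of spots were well above background, at 1 dpi 72.3%, 74.8% and 75.6%, and at 3 dpi 81.8%, 81.6% and 81.8%. A group with 0 of 3 such arrays gave only a bound, from the dimmest signal well above background on the array.

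All genes were fitted together with limma 3.58.1 in R 4.3.3, with a mean for each group, and files were read with version 1.17.8 of data.table. The procedure was tested on simulated data. The 10 genes, 5 pathway lists and 11 marker lists were chosen with earlier results of these data known, and lists were described by counts and medians. Of each pathway list, up to 3 called genes with the largest change per comparison were named, among those that every array of both groups had well above background and whose arrays did not overlap. For each growth factor called, the 3 genes with the highest Pearson correlation were named. Alternatives covered scaling, background correction (normexp), the filter, the probe, the threshold, the spread model, the methods' test, blocks for replicate number and slide, and leaving out each array.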

Additional observations from a re-analysis of the deposited data

Results flagged for a closer look

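The effects at 1 and 3 dpi, both against the same 3 Ctrl arrays, differed from each other for 4 of the 10 growth factors at an adjusted p under 0.05 in limma and at least 2-fold. The effect on Vegfc was larger at 3 dpi by 1.21 on the log2 scale (adjusted p = 2.55e-05), but by 0.85 with the mean of probes, which was not called and takes in a dim probe. For Fgf1 the effect at 3 dpi exceeded that at 1 dpi by 1.90 (adjusted p = 1.93e-05), but by 0.92 with normexp and the 75th percentile and by 0.37 with the mean of probes, neither called. That mean takes in signal at background level. The effect on Fgf2 differed by -3.48, from 1 to 3 dpi (adjusted p = 1.24e-04). Igf1 had an effect larger by 1.84 at 3 dpi (adjusted p = 8.16e-06), but by 0.83 with the mean of probes, which was not called. In each case all 3 arrays of one time lay on the same side of all 3 arrays of the other.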

How the results depend on the processing

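Over the values of 10 genes in 3 comparisons under the alternatives that give a value for each gene, 645 kept their direction and whether they were called, 21 fell short of a call, 16 gained one and 8 reversed. Vegfc, Pdgfa, Igf1 and Angpt1 at 3 dpi, and Fgf2 and Angpt1 at 1 dpi, were called under every alternative with a value per gene. Fgf2 at 1 dpi lay between 3.30 and 4.79. At 3 dpi Angpt1 lay between -1.48 and -1.32, Igf1 between 1.63 and 2.72 and Vegfc between 1.63 and 2.12. Fgf2 and Angpt1 have 1 kept probe each, so that these alternatives could not show whether their values depend on the probe. Reversed were Vegfa at 1 dpi in the deposited table (0.25) and with the mean of all kept probes (0.37), Fgf1 at 1 dpi with that mean (0.042), and Vegfa at 3 dpi after scaling to the array median (-0.061). From 1 to 3 dpi Hgf reversed in the deposited table (-0.63) and with the mean of probes (-0.32), and Egf with normexp and the 75th percentile (-0.25) and with the mean of probes (-0.17). For Vegfa and Hgf the deposited table holds another probe. For the others the cause was not tested. Fgf1 at 1 dpi was not called with normexp (-0.24 with the 75th percentile and -0.77 with quantile normalization), with slide as a block (-0.97) or without 1 dpi replicate 3 (-0.95), nor was it from 1 to 3 dpi with normexp and the 75th percentile (0.92). Fgf2 at 3 dpi was not called under any other scaling (0.46 to 0.97), with slide as a block (0.71), with the replicate block (adjusted p = 0.0568) or without any 1 array of 3 dpi. Over all its alternatives its adjusted p ran from 0.00301 to 0.0768 in limma.

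The number of growth factors called at 1 dpi was 3, and it was 10 with no minimum fold change and 6 with every kept probe as a feature. At 3 dpi it was 5, and 9 with no minimum. For 3 against 1 dpi it was 4, and 7 with no minimum and 1 with the mean of probes, where Vegfc (0.85), Igf1 (0.83) and Fgf1 (0.37) fell short. Leaving out 1 array gave 2 to 3, 4 to 5 and 4. Of all genes, 4468 were called at 1 dpi, against 2437 with normexp and the 75th percentile, 1660 with normexp and quantile normalization and 16443 with no minimum. At 3 dpi 2587 were called, against 1284, 1142 and 9416. For 3 against 1 dpi 2588 were called, against 1349, 1079 and 13125, and 4489 with no filter and 3891 with every probe. Leaving out 1 array gave 3561 to 5367, 2347 to 2768 and 2264 to 2812. Leaving out the minimum or adding probes widens what can be called, and for the rest the cause was not tested. The methods' test called 3946, 2550 and 2726 genes unadjusted and 3360, 2207 and 2524 after Benjamini-Hochberg adjustment. The replicate block gave 4273, 2498 and 2494, but replicate numbers did not pair the samples, with correlations of deviations between -0.11 and 0.13.

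Of genes called at 1 dpi 81.1% were higher, but 48.8% after scaling to the array median, 56.2% after quantile normalization, 68.8% after normexp and quantile normalization and 49.8% in the deposited table. At 3 dpi 79.4% were higher, and 66.9% in the deposited table. Between 3 and 1 dpi 45.2% were higher, but 67.2%, 62.9% and 62.7% after array median scaling, after quantile normalization and in the deposited table, and 33.1% after normexp and the 75th percentile. Directions of small changes therefore depend on the scaling. Signal over background was lowest on Ctrl replicate 1. Its differences from the other Ctrl arrays had an SD of 0.68 against 0.24 between those, and this limits dim probes such as that of Fgf2 in Ctrl. For Egf, also dim, leaving out that array moved the value at 1 dpi from -0.70 to -0.67.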
